A study of Mus musculus with 10 samples.

Results

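The 43 genes described here are mouse orthologues of human chromosome 21 genes that lie on mouse chromosomes 10 and 17, and so stay at 2 copies in Dp1Rhr mice. They were taken as a list of gene symbols. The rule uses position and copy number and no measured value, but the list was drawn up with earlier results of these data known and does not hold every such orthologue. All 43 had a probe set annotated to that symbol alone, 27 on chromosome 10 and 16 on chromosome 17, out of 19938 genes tested. Expression was measured in the hippocampus of male mice aged 16 weeks on Affymetrix Mouse Gene 1.0 ST arrays. Each mouse gave 1 array, and there were 5 Dp1Rhr mice and 5 of their control littermates. Dp1Rhr mice carry an additional copy of the stretch of chromosome 16 from Cbr1 to Fam3b. The duplication is present in every cell and has no promoter or Cre driver of its own. The control mice came from a cross of the Dp5Yah and Dp1Rhr lines and carry neither duplication. The labels give the background of both groups as C57BL/6N, whereas the study's methods name C57BL/6J for the line. The question was whether human chromosome 21 orthologues outside the duplicated stretch differ in level when the genes within it are at 3 copies.

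Human chromosome 21 is split over 3 mouse chromosomes, so that a duplication on chromosome 16 leaves the orthologues on chromosomes 10 and 17 with the ordinary dose. Models with a chromosome 16 duplication therefore lack part of the gene dosage of Down syndrome. The genes have no common function. They include S100b, a calcium-binding protein of astrocytes and of part of the oligodendrocytes, Adarb1, an adenosine deaminase that edits glutamate receptor transcripts, Sumo3, a ubiquitin-like modifier, and Sik1, a kinase induced by neuronal activity.

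The deposited values are quantile normalized, which by itself makes the distributions of the 10 arrays alike. Median log2 values ran from 6.77 to 6.83, correlations between arrays ran from 0.995 to 0.999, and no 2 arrays were identical. These figures are therefore no test of how alike the samples were. The mean of 12 markers of hippocampal pyramidal and dentate neurons was 9.81 to 9.90 in control and 9.84 to 9.90 in Dp1Rhr, and the mean of the 31 measured genes of the duplicated stretch was 8.09 to 8.10 and 8.29 to 8.33, higher in every Dp1Rhr array. Markers of neighbouring tissue varied more, above all those of choroid plexus, which were lowest in controls 2 and 3. Median log2 fold changes were 0.87 for choroid plexus, 0.14 for endothelium, 0.10 for meninges and 0.097 for habenula and thalamus, with no marker called in these lists. The habenula and thalamus markers went both ways, from -0.86 in Tcf7l2 to 1.17 in Chrna3, with 4 of 10 higher and 1 lower at an unadjusted p under 0.05. The 1 measured blood gene, Alas2, was called higher (0.67 ± 0.11 SE, adjusted p = 0.0304). Values with an SE here and in what follows are log2 fold changes, Dp1Rhr minus control, with limma's adjusted p over all genes, and array values are log2 signals of replicates 1 to 5 in order.

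None of the 43 members passed an adjusted p of 0.05 in limma with Benjamini-Hochberg adjustment over all 19938 genes, where 160 genes, 0.802%, passed. The members nearest to the threshold were Adarb1, lower in Dp1Rhr, and S100b, higher in Dp1Rhr. At an unadjusted p under 0.05 there were 8 members, 5 with a higher mean in Dp1Rhr (S100b, Slc37a1, Pde9a, Pttg1ip and Cstb) and 3 with a lower one (Adarb1, Mcm3ap and Abcg1). Over all genes 8.55% met that mark on the higher side and 6.44% on the lower side. The members' shares, 11.6% and 6.98%, were near these. FCROS, the rank method used by the study, called S100b and Adarb1 among 1075 genes, 5.39% of all. It calls the tails of a rank statistic scaled to its own spread, so the share called is nearly fixed in advance. A member that missed the threshold is not shown to be equal in the 2 groups.

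The differences were small. The median log2 fold change, Dp1Rhr minus control, was 0.0050 over the members, 0.010 over those of chromosome 10 and -0.0071 over those of chromosome 17, with 22 members above 0 and 21 below. The median over all genes was 0.00. The range ran from -0.15 in Adarb1 to 0.30 in S100b, and 37 members lay within 0.1 of 0. The 31 measured genes of the duplicated stretch had a median of 0.21, with 14 of them called higher. For all 43 members the 95% confidence interval ended below 0.58, the log2 value of a 3 to 2 ratio. This held for 28 of the 31 genes at 3 copies too, so it does not by itself tell a gene at 2 copies from one at 3. The highest upper limit among the members was 0.47, for S100b. Standard errors ran from 0.027 to 0.12 with a median of 0.046.

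**Figure D1:**
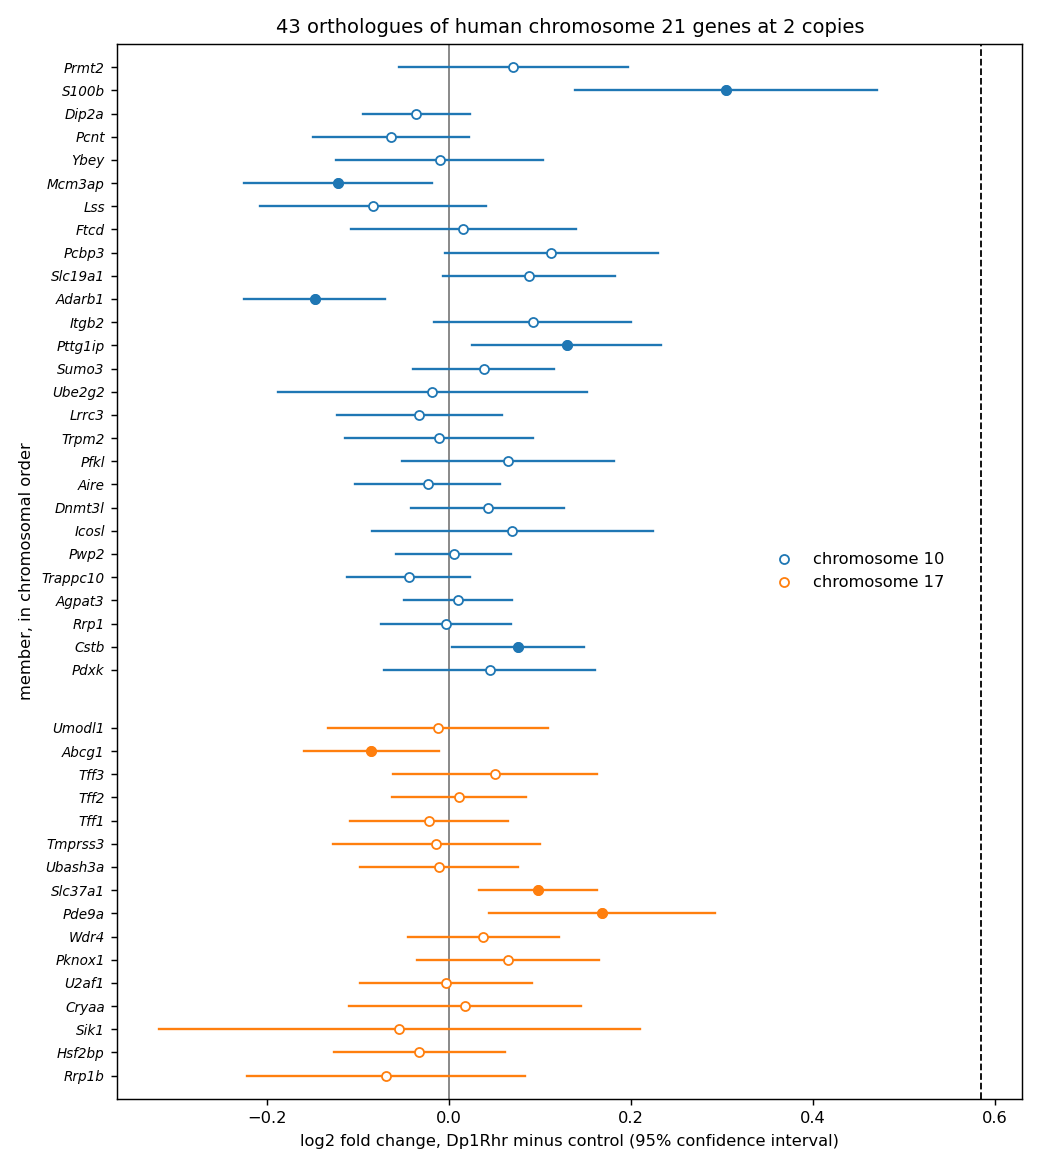
Log2 fold change, Dp1Rhr minus control, of each of the 43 members in chromosomal order (points), with the 95% confidence interval of the limma fit (lines). Filled points mark the 8 members at an unadjusted p under 0.05, the solid line marks 0 and the dashed line the log2 value of a 3 to 2 ratio, 0.58, which every interval stops short of.

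**Figure D2:**
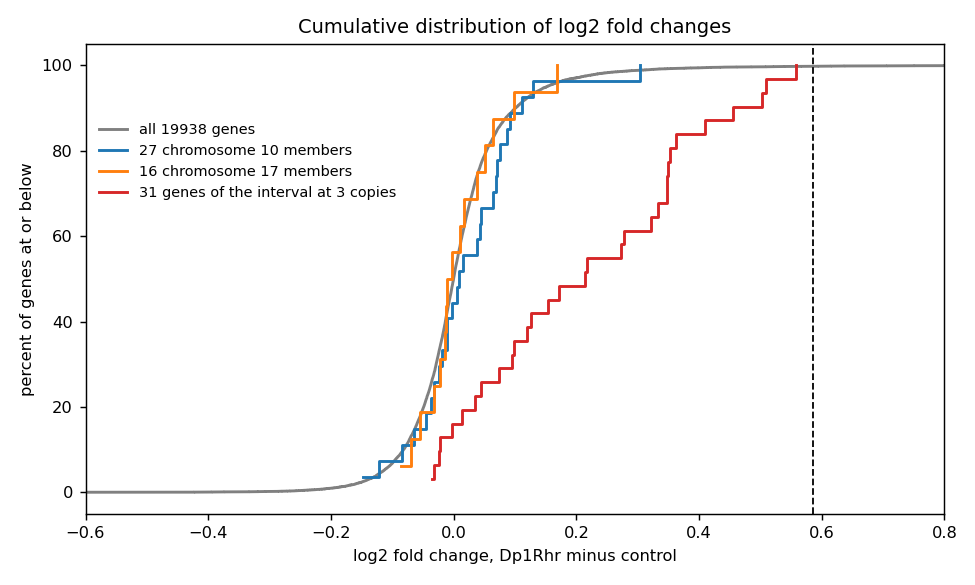
Cumulative distribution of log2 fold changes (percent of genes at or below each value) for all 19938 genes, the 27 chromosome 10 members, the 16 chromosome 17 members and the 31 genes of the duplicated stretch, with a dashed line at 0.58. The curves of the members run near that of all genes, with medians of 0.010 and -0.0071, and the curve of the genes at 3 copies lies to the right, with a median of 0.21.

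Among the 9 members that act on RNA or in ribosome assembly, Adarb1 was nearest to a call. The gene lies at chr10:77290727-77418292 (GRCm38), on the reverse strand. Its log2 signal was 10.31, 10.28, 10.20, 10.27 and 10.20 in the control arrays and 10.03, 10.15, 10.09, 10.10 and 10.16 in the Dp1Rhr arrays. Every Dp1Rhr array was below every control array, with a gap of 0.033 between the groups. Adarb1 was the 1 member with all Dp1Rhr arrays below the controls, a pattern found in 1.70% of all genes. Its log2 fold change was -0.15 ± 0.035 SE, adjusted p = 0.0797 in limma, and among the alternatives run with limma it passed in 1, when each array was centred on its median (adjusted p = 0.0478). The other editing enzymes Adar and Adarb2 and the poly(C) binding paralogues of Pcbp3 gave no call in 5 genes, with a median of -0.011. The nearest were Adarb2 (-0.087 ± 0.051 SE, adjusted p = 0.479) and Pcbp4 (-0.040 ± 0.033 SE, adjusted p = 0.650).

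S100b, at chr10:76253836-76261319 on the forward strand, had the largest difference of the 43 members. Its log2 signal was 9.39, 9.51, 9.67, 9.53 and 9.54 in control and 9.996, 9.96, 9.70, 9.89 and 9.60 in Dp1Rhr. Dp1Rhr 1 to 4 lay above every control array, array 3 narrowly, whereas Dp1Rhr 5 lay within the control range, so the groups overlapped. The log2 fold change was 0.30 ± 0.076 SE, adjusted p = 0.0853. Without Dp1Rhr replicate 5 it was 0.36 with an adjusted p of 0.0310. That array was the lowest of its group, so leaving it out raises the difference and lends it no support. Without Dp1Rhr replicate 1 the value was 0.26, and the adjusted p reached 0.217 among the limma alternatives. S100b is made by astrocytes and by part of the oligodendrocytes, and their marker genes were read beside it. Of 9 measured oligodendrocyte markers none was called and 5 were higher at an unadjusted p under 0.05, with a median of 0.14. Their mean log2 signal was 10.88, 10.92, 10.84, 10.92 and 10.97 in control and 11.12, 11.08, 11.10, 11.02 and 10.94 in Dp1Rhr, where array 5 was again the lowest of its group. In control the order differed, with array 3 the highest in S100b and the lowest in these markers. The 10 astrocyte markers had a median of 0.026 and means of 10.51 to 10.67 in control and 10.53 to 10.59 in Dp1Rhr. One of them, Fgfr3, a fibroblast growth factor receptor, was called lower (-0.37 ± 0.074 SE, adjusted p = 0.0471). The part of cell composition in the S100b value was not tested. In whole tissue, more cells of a type and more RNA per cell cannot be told apart.

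Slc37a1, a transporter of sugar phosphates in the endoplasmic reticulum, lies on chromosome 17 at chr17:31295135-31350709 on the forward strand. Its log2 signal was 7.45, 7.47, 7.43, 7.51 and 7.39 in control and 7.55, 7.52, 7.53, 7.59 and 7.55 in Dp1Rhr. All 5 Dp1Rhr arrays were above all 5 control arrays, the 1 member with this pattern, against 1.82% of all genes. The gap between the groups was 0.010, and the log2 fold change was 0.098 ± 0.030 SE, adjusted p = 0.137.

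The start regions of these 3 members, which had the smallest unadjusted p of the list, are shown because they differ in base composition. Each is 250 bases before to 50 after a RefSeq start on GRCm38.p6, written along the gene's own strand, with every CG in capitals. They lie at chr10:77418224-77418523 (reverse strand), chr10:76253586-76253885 (forward) and chr17:31295974-31296273 (forward).
Adarb1: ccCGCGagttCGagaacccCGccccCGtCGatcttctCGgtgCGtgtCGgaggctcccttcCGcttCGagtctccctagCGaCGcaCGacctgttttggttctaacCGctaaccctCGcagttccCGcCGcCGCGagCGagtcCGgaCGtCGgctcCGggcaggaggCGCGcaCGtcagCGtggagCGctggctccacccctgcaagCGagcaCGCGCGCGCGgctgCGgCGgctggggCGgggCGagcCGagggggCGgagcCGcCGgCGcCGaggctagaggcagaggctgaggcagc
S100b: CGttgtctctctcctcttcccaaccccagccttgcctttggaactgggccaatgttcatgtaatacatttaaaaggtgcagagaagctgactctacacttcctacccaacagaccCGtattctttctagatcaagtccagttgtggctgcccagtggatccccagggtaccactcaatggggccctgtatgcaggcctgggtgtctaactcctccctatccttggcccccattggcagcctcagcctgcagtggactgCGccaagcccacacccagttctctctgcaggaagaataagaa
Slc37a1: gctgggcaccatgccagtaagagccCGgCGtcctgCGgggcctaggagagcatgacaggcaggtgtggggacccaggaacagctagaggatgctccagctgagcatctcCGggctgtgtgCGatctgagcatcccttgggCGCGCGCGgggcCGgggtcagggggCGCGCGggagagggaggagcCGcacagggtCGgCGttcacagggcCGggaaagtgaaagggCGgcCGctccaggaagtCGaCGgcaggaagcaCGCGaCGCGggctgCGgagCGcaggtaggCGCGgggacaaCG

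The Adarb1 window held 46 CG and 73.0% G and C, and the Slc37a1 window 30 CG and 70.3%. The S100b window held 3 CG and 53.7%, against a median of 7 CG over all 32851 windows. Windows were found for 31 of the 43 members. For members with several windows the highest CG count and a motif in any window were taken. The values over all windows count each window singly, so the member values are not strictly on the same footing. The 22 of them above the 40th percentile of mean signal had 3 to 47 CG, with a median of 25, and the 9 below had 3 to 20, with a median of 7. On either strand the letters GGGCGG, a GC box, stood in the windows of 19 of the 31 members and in 35.7% of all windows. Those 19 members ranged in log2 fold change from -0.15 (Adarb1) to 0.13 (Pttg1ip). TATAAA was found in 4 members (Aire, Ftcd, Prmt2 and Trpm2) and 13.6% of all windows, and CCGGAAG, an ETS motif, in 4 (Mcm3ap, Prmt2, Pwp2 and Trappc10) and 8.9%. Of the 8 members at an unadjusted p under 0.05, 5 had a window, and besides the printed ones Mcm3ap held 28 CG and Pttg1ip 20.

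**Figure D3:**
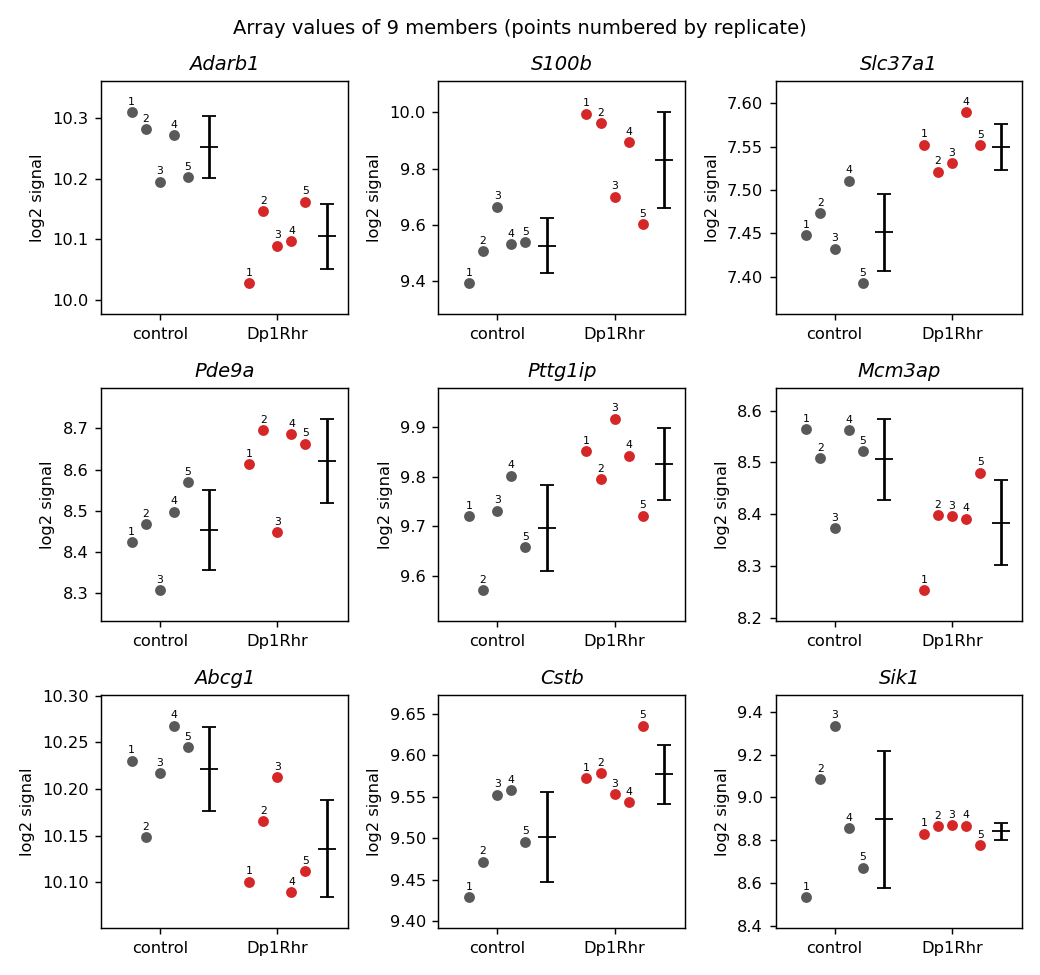
Log2 signal in each array, numbered by replicate, for the 8 members at an unadjusted p under 0.05 and for Sik1, with group mean and SD beside the points (5 control and 5 Dp1Rhr arrays, axes differ between panels). The groups do not overlap in Adarb1 and Slc37a1, and the control values of Sik1 run from 8.54 to 9.34 while those of Dp1Rhr lie between 8.78 and 8.87.

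The remaining members of the RNA group gave the following. Mcm3ap, a scaffold protein for the export of messenger RNA, was at 8.56, 8.51, 8.37, 8.56 and 8.52 in control and 8.25, 8.40, 8.40, 8.39 and 8.48 in Dp1Rhr. Only control 3 among the controls lay within the Dp1Rhr range, and the log2 fold change was -0.12 ± 0.047 SE, adjusted p = 0.244. Its span overlaps that of Ybey, an RNA endonuclease gene, by 213 bases, and which probes fall there was not examined. Ybey itself gave -0.010 ± 0.052 SE, adjusted p = 0.963. Pcbp3, a poly(C) binding protein, was at 9.70, 9.84, 9.81, 9.71 and 9.70 in control and 9.93, 9.87, 9.67, 9.91 and 9.96 in Dp1Rhr, where 4 arrays lay above the controls and array 3 below them. Its log2 fold change was 0.11 ± 0.054 SE, adjusted p = 0.357, and it was 0.16 (adjusted p = 0.0713) without Dp1Rhr replicate 3. Leaving out that array, the lowest of its group, raises the difference. With arrays centred on their medians the value was 0.088. U2af1, which reads the 3′ end of introns for the spliceosome, was at 8.34, 8.22, 8.36, 8.34 and 8.29 in control and 8.41, 8.32, 8.18, 8.30 and 8.33 in Dp1Rhr, a difference of -0.0031 ± 0.043 SE, adjusted p = 0.989. Its second probe set gave 0.0032, so both put U2af1 close to 0. The ribosome assembly genes were likewise near 0, with Pwp2 at 0.0050, Rrp1 at -0.0032 and Rrp1b at -0.070 on the log2 fold change scale, and the tRNA methyltransferase subunit Wdr4 was at 0.038. None of 14 other subunits of the small-subunit processome, where Pwp2 acts, passed (median -0.028), the nearest being Heatr1 (-0.12 ± 0.045 SE, adjusted p = 0.236) and Wdr36 (0.059 ± 0.030 SE, adjusted p = 0.394). None of 5 measured partners of U2af1 in splice site recognition passed either (median -0.013), with Sf1 at -0.039 ± 0.030 SE, adjusted p = 0.616 and U2af1l4 at 0.080 ± 0.084 SE, adjusted p = 0.737.

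The other 3 signalling members are Pde9a, Trpm2 and Sik1. Pde9a, a phosphodiesterase that breaks down cyclic GMP, was at 8.42, 8.47, 8.31, 8.50 and 8.57 in control and 8.61, 8.70, 8.45, 8.69 and 8.66 in Dp1Rhr. The groups overlapped through Dp1Rhr 3, the lowest of its group, and the log2 fold change was 0.17 ± 0.057 SE, adjusted p = 0.180, or 0.12 without control replicates 2 and 3. None of 15 other cyclic nucleotide phosphodiesterases passed (median 0.0074), with 8 above 0 and 7 below. Those with the smallest p, Pde3b (-0.13 ± 0.039 SE, adjusted p = 0.127) and Pde4d (-0.13 ± 0.051 SE, adjusted p = 0.259), had the opposite sign to Pde9a. Trpm2, a calcium channel opened by oxidative stress, gave -0.011 ± 0.047 SE, adjusted p = 0.955.

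Sik1, a kinase that is induced by activity and holds back the coactivators of the transcription factor CREB, was at 8.54, 9.09, 9.34, 8.86 and 8.67 in control and 8.83, 8.87, 8.87, 8.87 and 8.78 in Dp1Rhr. The log2 fold change was small (-0.055 ± 0.12 SE, adjusted p = 0.902), while the SD was 0.32 in control and 0.040 in Dp1Rhr, the former being the highest of the 43 members. Controls 2 and 3 were the highest of all 10 arrays, and controls 1 and 5 the lowest. Without controls 2 and 3 the log2 fold change was 0.15, of the opposite sign, a shift whose direction follows from leaving out the highest arrays. Without control 1, the lowest array, it was -0.145. The same 2 control arrays were highest in a list of 20 immediate early genes, which neurons switch on within minutes of activity. The mean of that list was 8.68, 9.14, 9.42, 8.83 and 8.88 in control and 8.57, 8.66, 8.58, 8.55 and 8.64 in Dp1Rhr, with a median log2 fold change of -0.32. Junb, a subunit of the factor AP-1 (-0.32 ± 0.050 SE, adjusted p = 0.0269), and Dusp1, a phosphatase of MAP kinases (-0.65 ± 0.12 SE, adjusted p = 0.0434), fell, and 15 of the 20 were lower at an unadjusted p under 0.05. In the control arrays Sik1 and the list mean thus had the same 2 highest and the same lowest array. In Dp1Rhr, where the list mean lay below every control, Sik1 lay within the control range. The part of the state of controls 2 and 3 in the Sik1 value was not tested beyond leaving them out. Of 9 other genes of the pathway (SIK kinases and their activator, CREB and its coactivators, and histone deacetylases) none passed (median -0.045), and the nearest were Crtc1, a CREB coactivator (-0.091 ± 0.033 SE, adjusted p = 0.215), and Hdac5, a deacetylase that SIK kinases phosphorylate (-0.057 ± 0.040 SE, adjusted p = 0.566).

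**Figure D4:**
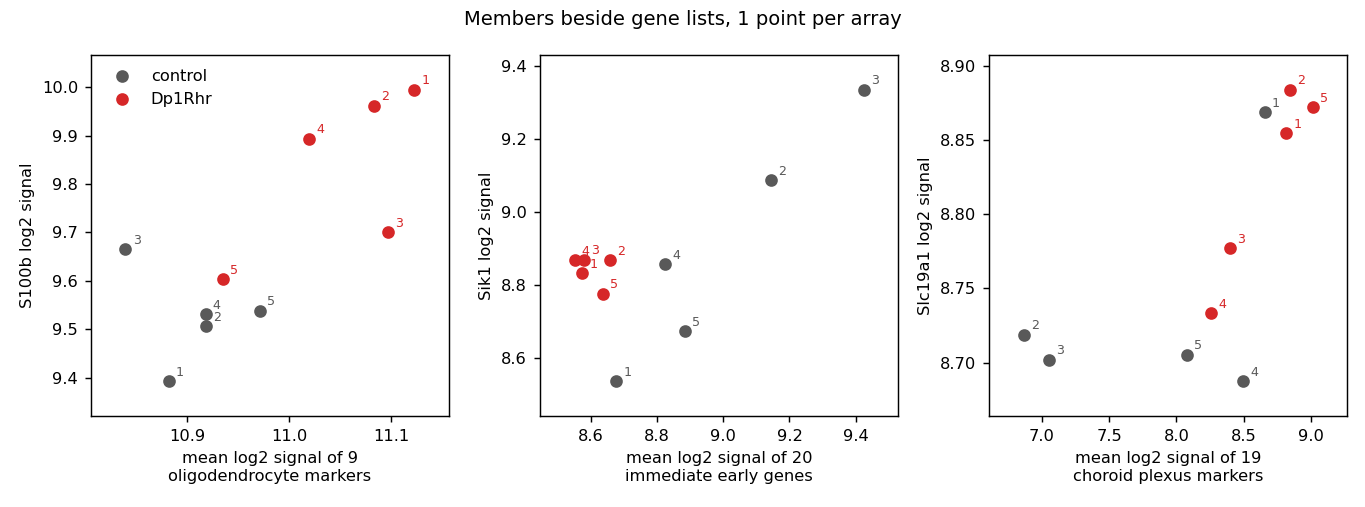
Log2 signal of 3 members (vertical axes) against the mean log2 signal of a gene list (horizontal axes) in each of the 10 arrays, numbered by replicate: S100b beside 9 oligodendrocyte markers, Sik1 beside 20 immediate early genes and Slc19a1 beside 19 choroid plexus markers. Controls 2 and 3 are highest for Sik1 and its list and lowest for the choroid plexus list, at 6.86 and 7.05.

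The metabolic members included the transporters Slc19a1 and Abcg1. Slc19a1, the reduced folate carrier, was at 8.87, 8.72, 8.70, 8.69 and 8.71 in control and 8.85, 8.88, 8.78, 8.73 and 8.87 in Dp1Rhr. Control 1 stood with the Dp1Rhr arrays and the other 4 controls below them, and the log2 fold change was 0.088 ± 0.043 SE, adjusted p = 0.374. A second, dimmer probe set gave 0.0043. The choroid plexus, which carries folate into the cerebrospinal fluid, left a marker signal that varied between these arrays. The mean of 19 of its markers was 8.66, 6.86, 7.05, 8.49 and 8.08 in control and 8.81, 8.84, 8.40, 8.26 and 9.01 in Dp1Rhr, lowest in controls 2 and 3. None of these markers was called, and 13 were higher at an unadjusted p under 0.05. A choroid plexus score on another scale than this mean, from -1.68 in control 2 to 0.998 in Dp1Rhr 5, served as a covariate. With it the Slc19a1 value was 0.025 (adjusted p = 0.907), and without controls 2 and 3 together, with no covariate, it was 0.070. Control 1 was the highest control in both Slc19a1 and the marker mean. Control 4 was the lowest in Slc19a1, at 8.69, with a marker mean of 8.49. The part of choroid plexus in the Slc19a1 value was not tested beyond these fits. The other folate genes gave no call in 9 measured of 13 (median 0.038), with the transporter Slc46a1 at 0.20 ± 0.050 SE, adjusted p = 0.0853 and the folate receptor Folr1, itself a choroid plexus marker, at 0.87 ± 0.36 SE, adjusted p = 0.268. Ftcd, an enzyme of histidine and folate metabolism in liver, gave 0.016 ± 0.057 SE, adjusted p = 0.943 and lay below the 40th percentile of signal.

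Abcg1, which exports cholesterol from cells, was at 10.23, 10.15, 10.22, 10.27 and 10.24 in control and 10.10, 10.17, 10.21, 10.09 and 10.11 in Dp1Rhr. Control 2 lay within the Dp1Rhr range, the other controls lay above it, and the log2 fold change was -0.086 ± 0.034 SE, adjusted p = 0.257. Lss, the lanosterol synthase of cholesterol synthesis, was at 8.47, 8.65, 8.44, 8.44 and 8.39 in control and 8.29, 8.40, 8.52, 8.30 and 8.47 in Dp1Rhr, a difference of -0.084 ± 0.057 SE, adjusted p = 0.555 that was -0.040 without control replicate 2, its highest array. Of 19 measured genes of sterol synthesis and efflux none passed and 5 were higher at an unadjusted p under 0.05 (median 0.052). Among these 5 were the pathway enzymes Hmgcs1 (0.15 ± 0.047 SE, adjusted p = 0.139) and Idi1 (0.22 ± 0.085 SE, adjusted p = 0.233). In the whole list 13 genes were above 0 and 6 below, the lowest being the efflux gene Abca1 (-0.085 ± 0.052 SE, adjusted p = 0.502). Pfkl, the liver form of phosphofructokinase, gave 0.065 ± 0.053 SE, adjusted p = 0.648, Pdxk, which activates vitamin B6, 0.044 ± 0.053 SE, adjusted p = 0.780, and Agpat3, an acyltransferase of phospholipid synthesis, 0.010 ± 0.027 SE, adjusted p = 0.924. None of 12 measured glycolytic genes besides Pfkl passed (median 0.029). The nearest were Pfkp, the platelet form of phosphofructokinase (0.12 ± 0.044 SE, adjusted p = 0.202), and Ldhb, a lactate dehydrogenase subunit (0.12 ± 0.050 SE, adjusted p = 0.286).

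Among the 7 members of protein turnover, trafficking and the centrosome, Pttg1ip and Cstb were nearest to a call. Pttg1ip, which carries securin into the nucleus, was at 9.72, 9.57, 9.73, 9.80 and 9.66 in control and 9.85, 9.80, 9.92, 9.84 and 9.72 in Dp1Rhr. Control 2 was the lowest and Dp1Rhr 3 the highest, the groups overlapped, and the log2 fold change was 0.13 ± 0.048 SE, adjusted p = 0.218. Cstb, an inhibitor of lysosomal cysteine proteases, was at 9.43, 9.47, 9.55, 9.56 and 9.50 in control and 9.57, 9.58, 9.55, 9.54 and 9.64 in Dp1Rhr. Controls 3 and 4 lay among the Dp1Rhr values (0.075 ± 0.033 SE, adjusted p = 0.312). Both genes had their highest array in Dp1Rhr and their lowest in control. Sumo3, a modifier joined to other proteins, was at 10.09, 10.07, 10.14, 10.02 and 10.06 in control and 10.18, 10.08, 10.03, 10.14 and 10.12 in Dp1Rhr (0.038 ± 0.036 SE, adjusted p = 0.701). The other SUMO genes, enzymes and proteases included, gave 0 calls in 12 measured of 15 (median -0.037), with the proteases Senp6 (-0.086 ± 0.031 SE, adjusted p = 0.210) and Senp7 (-0.069 ± 0.037 SE, adjusted p = 0.422) nearest.

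Pcnt, the pericentrin of the centrosome, was at 7.35, 7.47, 7.38, 7.52 and 7.37 in control and 7.41, 7.28, 7.37, 7.34 and 7.38 in Dp1Rhr (-0.064 ± 0.039 SE, adjusted p = 0.499), and controls 2 and 4 were its highest arrays. Of 9 measured pericentriolar genes none passed (median -0.017). Nin, the microtubule anchor ninein, was lower in every Dp1Rhr array than in every control (-0.21 ± 0.058 SE, adjusted p = 0.116), as were 1.70% of all genes. Among genes of other lists, Crtc1 was separated in the same direction and Trappc1 in the other. Cep192, a centrosome maturation protein, gave -0.079 ± 0.039 SE, adjusted p = 0.373. Trappc10, a subunit of the TRAPP tethering complexes of the secretory pathway, was at 10.33, 10.38, 10.26, 10.34 and 10.26 in control and 10.26, 10.24, 10.25, 10.30 and 10.29 in Dp1Rhr (-0.044 ± 0.031 SE, adjusted p = 0.569), with overlapping groups. None of the 13 other TRAPP genes passed (median 0.026). Trappc1 (0.15 ± 0.041 SE, adjusted p = 0.115) and Trappc4 (0.081 ± 0.039 SE, adjusted p = 0.359) were nearest. Of the 13, 9 were above 0 and 4 below, the lowest being Trappc8 (-0.076 ± 0.039 SE, adjusted p = 0.395). Dip2a gave -0.036 ± 0.027 SE, adjusted p = 0.602 and Ube2g2, a ubiquitin-conjugating enzyme for the disposal of misfolded proteins, -0.018 ± 0.078 SE, adjusted p = 0.952.

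The 4 members that act on transcription and chromatin and the 3 of immune cells gave no member at an unadjusted p under 0.05. The homeodomain factor Pknox1 was at 0.065 ± 0.046 SE, adjusted p = 0.577 and the arginine methyltransferase Prmt2 at 0.071 ± 0.058 SE, adjusted p = 0.644 on the log2 fold change scale. The other 8 arginine methyltransferases gave 0 calls (median 0.024), the nearest being Prmt9 (0.052 ± 0.049 SE, adjusted p = 0.697) and Prmt5 (0.039 ± 0.039 SE, adjusted p = 0.726). Dnmt3l, a cofactor of DNA methylation in germ cells (0.042 ± 0.039 SE, adjusted p = 0.689), and Aire, which drives tissue antigens in the thymus (-0.023 ± 0.037 SE, adjusted p = 0.847), were both below the 40th percentile of signal, and their spans overlap by 1324 bases. Itgb2, the chain shared by the leukocyte integrins and found on microglia, was at 7.19, 7.08, 7.20, 7.21 and 7.10 in control and 7.28, 7.22, 7.41, 7.18 and 7.15 in Dp1Rhr (0.092 ± 0.050 SE, adjusted p = 0.427), with Dp1Rhr 3 the highest. Without that array the difference was 0.052. The mean of 11 microglia and myeloid markers was 8.61 to 8.74 in control and 8.75 to 8.83 in Dp1Rhr. Of these markers 0 were called, 5 were higher at an unadjusted p under 0.05, and their median was 0.082. Their part in the Itgb2 value was not tested. The alpha chains that pair with Itgb2 and the ICAM ligands gave 0 calls in 8 genes (median 0.025), with Icam2 (0.12 ± 0.040 SE, adjusted p = 0.180) and Icam1 (0.082 ± 0.033 SE, adjusted p = 0.256) nearest. Icosl, a costimulatory ligand of T cells, gave 0.070 ± 0.071 SE, adjusted p = 0.729, and Ubash3a, a regulator of T cell receptor signalling, -0.011 ± 0.040 SE, adjusted p = 0.942.

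The last 8 members are known mainly from other tissues, and 6 of them lay below the 40th percentile of mean signal. Their log2 fold changes ran from -0.033 in Hsf2bp, a meiotic gene of testis, to 0.051 in Tff3, a trefoil factor of mucous epithelia. Tff1 and Tff2, 2 further trefoil factors, gave -0.022 and 0.011, the lens protein Cryaa 0.017, the inner ear protease Tmprss3 -0.014, Umodl1 -0.012 and Lrrc3 -0.033. In all, the 12 members below the 40th percentile had a median of -0.012, and none was at an unadjusted p under 0.05. The 31 above it had a median of 0.038 and held all 8 such members. Over all genes the medians did not split this way, at -0.00063 above the percentile and 0.00027 below it. The split in counts at that p was seen there too. Of 11963 genes above the percentile, 1356 were higher and 1153 lower at that mark, against 349 and 132 of 7975 below it.

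No single array was the extreme one in most members. For the 31 members above the 40th percentile of signal, Dp1Rhr 3 was the lowest array of its group in 11, among them Pde9a, Pcbp3, Pfkl, Prmt2, Sumo3 and Pdxk, and the highest in 7. Control 3 was the highest of its group in 10 and the lowest in 5. The mean over all 43 members was 8.22 to 8.26 in control and 8.24 to 8.26 in Dp1Rhr. The 2 runs of chromosome that the members span, chr10:76207226-78464948 and chr17:30954648-32062865, also held 22 other named genes, 19 and 3 of them. Of these the 1 call was Cbs on chromosome 17, cystathionine beta-synthase, itself a human chromosome 21 orthologue outside the list of 43 (log2 fold change -0.28 ± 0.054 SE, adjusted p = 0.0434). Over all genes 0.802% were called. The study, whose arrays these are, reports Cbs as lower in Dp1Rhr too and gives qRT-PCR for it. Rsph1, another of the 3 on chromosome 17, a gene of motile cilia that was named after its values were seen, had the opposite sign and no call (0.39 ± 0.098 SE, adjusted p = 0.0864).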

How the data were processed

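Total RNA of the hippocampus was measured on 10 Affymetrix Mouse Gene 1.0 ST arrays, 5 Dp1Rhr and 5 control, grouped by the condition label. The authors processed the scans with RMA (background correction, quantile normalization and summary per probe set) and deposited log2 values. The submitters' notes also name limma and mm10. Which arrays were normalized together is not given in the sources used here. Quantile normalization would hide a change common to every gene.

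Of 35556 probe sets, 21789 had a single gene symbol in the platform annotation, 1621 had several and 12146 none. Symbols were updated through Entrez identifiers to RefSeq GRCm38.p6, and the brightest probe set stood for each of 19938 genes. Only Slc19a1 and U2af1 among the members had a second probe set. Groups were compared with lmFit and eBayes in limma 3.58.1 (R 4.3.3), two-sided, with Benjamini-Hochberg adjustment over all genes and a threshold of 0.05. The fit was checked on simulated data. Medians and counts over lists carry no test. The number of arrays limits the precision. The p-values weigh a group difference against the spread between these mice, moderated over all genes. The main alternative test was FCROS (trim 0.25, limits 0.025 and 0.975), the study's method. The other alternatives were a replicate block, arrays left out, renormalization, a signal filter at the 40th percentile, probe set means, other variance models and a choroid plexus score as covariate.

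Array values are given for the 14 members with the smallest p and for S100b, Sik1, Adarb1, Sumo3 and U2af1, and of each partner list the called genes, or else the 2 with the smallest p. The members, lists and rules were chosen with earlier results of these data known. Promoter windows (250 bases before to 50 after a start) are from RefSeq, GRCm38.p6, and matched 31 of 43 members by symbol.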

Additional observations from a re-analysis of the deposited data

Results flagged for a closer look

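In 7 of 86 sets of 5 arrays (43 members in 2 groups) 1 array lay apart from the other 4, with a gap of more than 0.71 of the range of the group. Chance gives about 1 in 20 such sets. The gap is given as a share of the range. Of these, 5 were in control. In Lss (0.722) control 2 was at 8.65 and the others lay between 8.39 and 8.47. In Mcm3ap (0.711) control 3 was at 8.37 against 8.51 to 8.56. In Pfkl (0.767) control 3 was at 10.72 against 10.54 to 10.58. In Rrp1 (0.849) control 2 was at 11.26 against 11.32 to 11.33. In Slc19a1 (0.827) control 1 was at 8.87 against 8.69 to 8.72. The other 2 sets were of Dp1Rhr. In Dip2a (0.901) Dp1Rhr 1 was at 9.13 against 9.19 in the other 4 arrays, and in Ybey (0.720) Dp1Rhr 5 was at 6.39 against 6.53 to 6.58.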

How the results depend on the processing

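No member was called under most alternatives. The exceptions were 1 member with arrays centred on their medians (Adarb1, -0.17, adjusted p = 0.0478), 1 without Dp1Rhr replicate 5 (S100b, 0.36, adjusted p = 0.0310) and 2 with FCROS. Leaving out 1 array at a time gave 0 to 1 called members. The number of genes called over all genes, 160 as reported, was 280 with array weights, 6 with the choroid plexus score as covariate, 5 without control replicates 2 and 3 together and 1075 with FCROS. FCROS calls a nearly fixed share of genes, so its count does not show how calls depend on the processing. With limma the number of genes called ran from 5 (without Dp1Rhr replicate 1) to 284 (without Dp1Rhr replicate 5) when 1 array was left out. Members at an unadjusted p under 0.05, 8 as reported, ran from 5 without Dp1Rhr replicate 1 to 11 without Dp1Rhr replicate 3. Members whose groups did not overlap, 2 as reported, were 1 after a second quantile normalization, 1 after centring, 6 without control replicates 2 and 3 together, and 2 to 4 with 1 array left out. With fewer arrays in a group, 2 groups separate more easily by chance. The share over all genes was not counted at these settings, so the rise to 6 is no result about the members.

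The median log2 fold change of the members, 0.0050 as reported, was -0.0030 after a second quantile normalization, -0.019 after centring, 0.038 when genes under the 40th percentile of signal were left out, 0.025 with the choroid plexus score, and -0.00081 to 0.016 with 1 array left out. The median log2 fold change of the chromosome 10 members was 0.028 without control replicates 2 and 3 together, -0.015 after centring and 0.028 with the choroid plexus score. The median log2 fold change of the chromosome 17 members was -0.031 after centring, 0.044 with the signal filter, 0.020 with the choroid plexus score, and -0.014 to 0.011 with 1 array left out. The cause of these shifts was not tested. Over 805 pairs of a member and a limma alternative, FCROS aside, the call changed in 2, and an uncalled value changed sign in 65, in 17 members. Every measured member kept a 95% confidence interval below a 3 to 2 ratio under the alternatives run.

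The labels give no sign that equal replicate numbers share an animal, litter or day, and the deviations of equal numbers correlated at 0.12, -0.33, -0.34, -0.082 and 0.069. With the replicate number as a block (replicate block) 4 genes and 0 members were called.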
